A study of Mus musculus with 20 samples.

Results

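The genes described here are Il2, which encodes the cytokine interleukin-2, and 7 receptor genes that serve IL-2 and its relatives: Il2ra, Il2rb, Il2rg, Il4ra, Il7r, Il15ra and Il21r. They were chosen by name from the 39179 gene IDs of the count tables, and no measured value enters the rule that picks them. All 8 were found and all 8 passed the filter on low counts. They were followed through 20 libraries of mouse CD4 T cells from C57BL/6 mice, all carrying a reporter that puts Thy1.1 on the surface of cells that transcribe Il17f, the gene of a Th17 cytokine.

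IL-2 drives the growth of activated T cells and is made mostly by T cells just after they meet antigen. Its receptor is built from an alpha chain (Il2ra, CD25), which raises affinity, a beta chain (Il2rb, CD122) and the common gamma chain (Il2rg, CD132). The beta chain also serves IL-15, with Il15ra as the private chain of that cytokine. The gamma chain also pairs with the receptor chains for IL-4 (Il4ra), IL-7 (Il7r, CD127) and IL-21 (Il21r). IL-7 keeps resting T cells alive, IL-4 directs Th2 cells, and IL-21 is both made and used by Th17 cells. These receptors signal through JAK1 and JAK3 to STAT proteins, mainly STAT5 for IL-2, IL-7 and IL-15, STAT6 for IL-4 and STAT3 for IL-21. In Th17 cells IL-2 acting through STAT5 is known to hold back Il17 transcription.

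The series has a transfer part and a culture part of 10 libraries each, normalised and tested separately. In the transfer part, cells labelled Il17f/Thy1.1 (CD45.1), called wild type here, and cells labelled Il6ra-/- Il17f/Thy1.1, which are CD45.2, were grown for 6 days as Th17 precursors. Hyper-IL-6 at 20 ng/ml, in which IL-6 is fused to its soluble receptor so that cells without Il6ra can respond, was given together with TGF-beta at 2.5 ng/ml, anti-CD3, antibodies against IFN-gamma and IL-4, and irradiated spleen cells. Of the Thy1.1+ cells, 2 libraries per genotype were made before transfer. Of each genotype, 200000 such cells entered the same Rag1-/- hosts, which lack T and B cells of their own. After 4 weeks live CD4+TCRb+ colon cells were sorted by CD45 allele without a reporter gate and sequenced as pools (3 libraries per genotype). Library 0 of each group belongs to one experiment, and libraries 1 and 2 to another.

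In the culture part, cells labelled IL-17F/Thy1.1 Hz (wild type) or IL6Ra-/-. IL-17F/Thy1.1 Hz gave 5 groups of 2 libraries. Naive CD4 T cells of either genotype stood against Thy1.1+ cells grown for 6 days with TGF-beta at 2.5 ng/ml and irradiated antigen-presenting cells. Wild-type cultures held IL-6 at 20 ng/ml or hyper-IL-6 at 63 ng/ml, and Il6ra-deficient cultures held hyper-IL-6 at 63 ng/ml. The labels give 4 h of PMA and ionomycin, drugs that mimic T cell receptor signals, for all 10 libraries of the culture part, naive ones included. Whether naive cells were in fact stimulated is unclear, as Il2 was near 0 in them, and in the differences between cultured and naive cells the parts of culture and of these drugs cannot be told apart. No label gives the age or sex of the mice, and wild-type and Il6ra-deficient donors of the transfer part also differed in CD45 allele. Apart from the pooled colon cells, it is not known from the labels which animals a library came from, and p-values therefore reflect only how much these libraries varied, which may be technical.

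Libraries of the transfer part held from 12718633 to 23745060 gene counts, and those of the culture part from 20160774 to 46848016. All levels below are TMM-normalised CPM (a gene's counts scaled to the size of the library), and differences are log2 fold changes ± SE from edgeR's quasi-likelihood test, adjusted over all genes tested (14225 in the transfer part, 14926 in the culture part) with a threshold of 0.05. The wild-type library 1 before transfer differed from the rest in that ribosomal protein genes took 3.19% of its counts, against 1.2% to 1.54% in the other 3 libraries of that stage. Wild-type colon library 2 had 4.28% mitochondrial counts, against 1.83% to 2.27% in the other colon libraries. Counts over the whole of Il6ra did not separate the genotype labels in the transfer part, and which exons were deleted is not stated. Before transfer the wild-type libraries had 84.2 and 72.8 CPM and the Il6ra-deficient ones 80.6 and 123 CPM. In the colon the genotypes overlapped as well. In the culture part the Il6ra-deficient libraries were lower. Naive cells had 199 and 213 CPM against 270.2 and 421 in wild type, and hyper-IL-6 cultures 32.3 and 31.8 against 39.8 and 39.2. The defining T cell genes (Cd3d, Cd3e, Cd3g, Cd4, Trac, Trbc1 and Trbc2) were read in every group, with a summed level of 1308 to 5869 CPM.

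Cultured Th17 cells and naive cells differed in all 8 genes. Il2, the genes of the alpha and beta chains of its receptor and Il15ra rose from naive to cultured cells. The gamma chain gene and the receptor genes for IL-4, IL-7 and IL-21 fell. All 8 genes passed the test in each of the 3 comparisons of cultured with naive cells, 4 higher and 4 lower each time. Those comparisons called 70.6% (wild type with IL-6), 70.3% (wild type with hyper-IL-6) and 72.0% (Il6ra-deficient with hyper-IL-6) of all genes, so a call by itself was the usual outcome there, and the sizes of the changes are what follows. The 7 T cell genes named above were also all lower in each of the 3 comparisons. Their median log2 fold change was -1.17 (wild type with IL-6), -1.20 (wild type with hyper-IL-6) and -1.16 (Il6ra-deficient), so falls of that size were not particular to the receptor genes. The wild-type comparisons share their naive libraries. In bulk RNA, fewer cells with a transcript and less RNA per cell cannot be told apart.

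**Figure D1:**
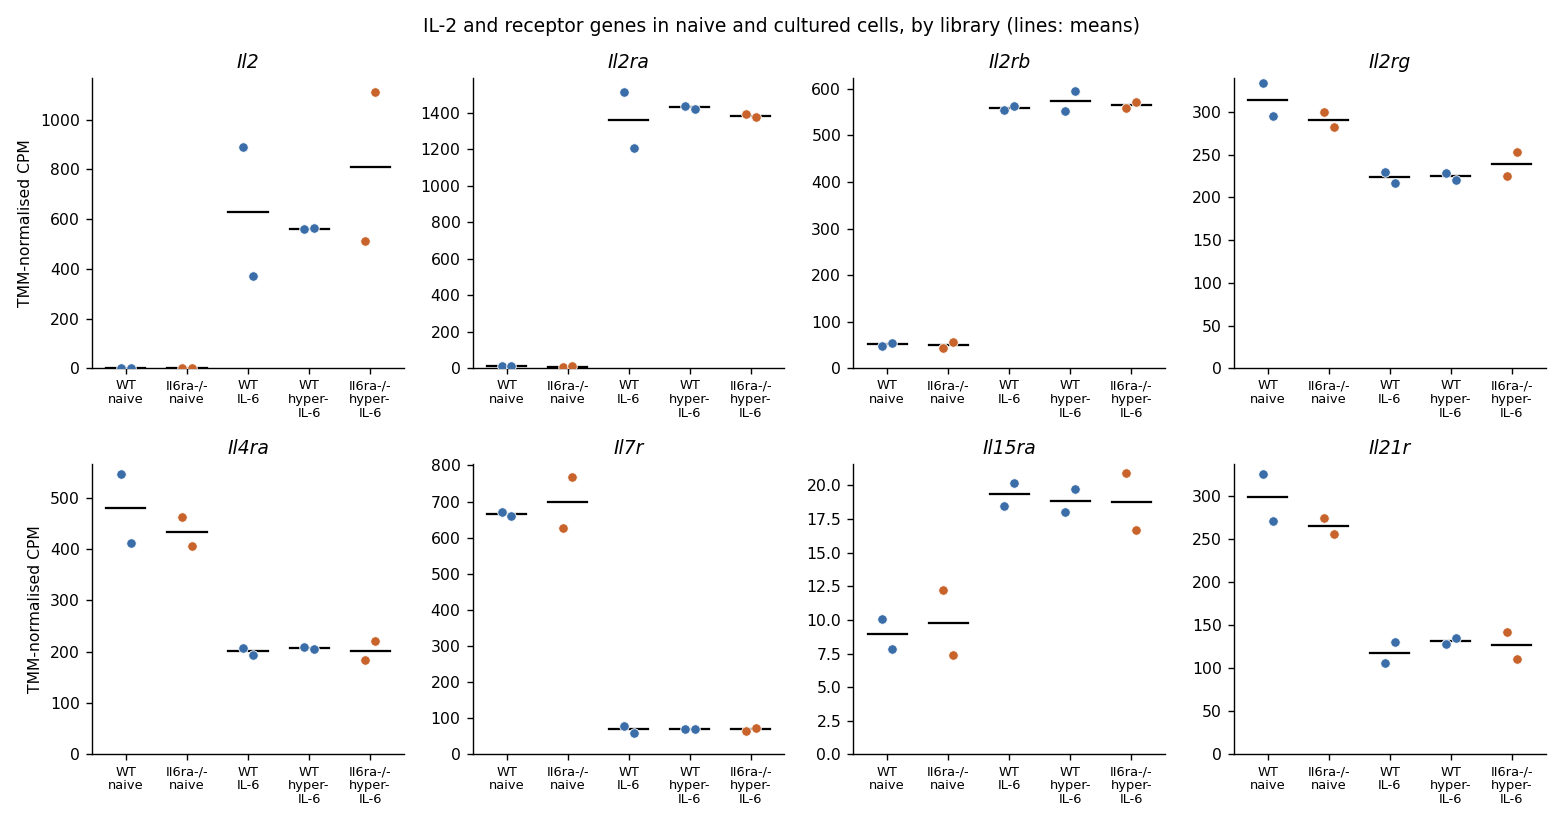
TMM-normalised CPM (vertical axes, each from 0) of the 8 genes in the culture part; each point is 1 library (blue wild type, orange Il6ra-deficient) and each line a group mean of 2 libraries. Il2, Il2ra, Il2rb and Il15ra are higher in all 6 cultured libraries than in all 4 naive ones, and Il2rg, Il4ra, Il7r and Il21r are lower.

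Il2 lies on the minus strand of chromosome 3 from 37120523 to 37125959 (GRCm38), and its transcripts went from almost none to some of the most frequent of the set. Naive wild-type libraries had 0.538 and 0.0847 CPM, and naive Il6ra-deficient ones 0.103 and 0 CPM, from 11, 2, 2 and 0 counts. In cultured libraries wild-type values were 891 and 370 CPM for IL-6 and 559 and 564 for hyper-IL-6, against 511 and 1113 in Il6ra-deficient cells. The 2 wild-type libraries with hyper-IL-6 were nearly equal, while each of the other cultured groups had 1 library more than 2 times as high as the other. With hyper-IL-6, the share of Il2 in all counts was 1903 times those of naive cells in wild type (95% interval 1113 to 3574) and 18321 times in Il6ra-deficient cells (5072 to 151285). These exact intervals cover counting error only and are wide because the naive counts were 13 and 2. Fos, an AP-1 gene that PMA and ionomycin are known to induce, was at 440.0 to 854 CPM in the naive libraries and at 2.87 to 6.52 CPM in the cultured ones.

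Il2ra (chromosome 2, 11642807 to 11693193, plus strand), the gene of the high-affinity chain, showed the widest change among the receptor genes. Naive wild-type libraries had 14.3 and 13.1 CPM, against 8.57 and 10.2 CPM in naive Il6ra-deficient ones. After culture, wild type had 1516 and 1209 for IL-6 and 1437 and 1423 for hyper-IL-6, and Il6ra-deficient cells had 1391 and 1376. All cultured libraries were far above all naive ones. The log2 fold change was 6.64 ± 0.15 with IL-6 (adjusted p = 2.28e-10), 6.71 ± 0.15 in wild type given hyper-IL-6 (adjusted p = 2.1e-10) and 7.20 ± 0.16 in Il6ra-deficient cells (adjusted p = 1.43e-10).

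The other chains of the IL-2 receptor moved apart from each other. Il2rb (chromosome 15, 78479256 to 78495271, minus strand) was at 42.4 to 57.4 CPM in the 4 naive libraries and at 553 to 596 CPM in the 6 cultured ones. Its rise was 3.45 ± 0.14 with IL-6, 3.49 ± 0.14 in wild type given hyper-IL-6 and 3.50 ± 0.14 in Il6ra-deficient cells (adjusted p at most 5.46e-09). Il2rg (chromosome X, 101264378 to 101268255, minus strand), the shared gamma chain, was at 282 to 334 CPM in naive and at 217 to 253 CPM in cultured libraries, so the groups did not overlap but lay close. It fell by 0.49 ± 0.10 on the log2 scale in both wild-type comparisons (adjusted p = 0.00101 with IL-6 and 0.00105 with hyper-IL-6) and by 0.28 ± 0.10 in Il6ra-deficient cells (adjusted p = 0.0223). Against a minimum of 1.5-fold none of these 3 falls of Il2rg passed (adjusted p from 0.77 to 1), and the call in Il6ra-deficient cells was lost without cultured library 1 (0.165) or naive library 1 (0.151). Reads in the 728 exonic bases that Il2rg shares with the predicted gene Gm20489 may have been left uncounted. That gene itself was listed at 0 CPM in 19 libraries and at 0.0238 CPM in the other.

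Il15ra (chromosome 2, 11705290 to 11734317, plus strand), which starts 12.1 kb beyond the end of Il2ra with no protein-coding gene between, was a rare transcript throughout. It was at 7.39 to 12.2 CPM in naive and at 16.7 to 20.9 CPM in cultured libraries. It rose by 1.11 ± 0.23 with IL-6, by 1.07 ± 0.23 in wild type given hyper-IL-6 and by 0.95 ± 0.23 in Il6ra-deficient cells (adjusted p = 0.00118, 0.00147 and 0.00297), so it moved in the direction of its neighbour but far less.

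Il7r (chromosome 15, 9505788 to 9530176, minus strand), the receptor of the survival cytokine of resting T cells, fell the most. Naive wild-type libraries held 670 and 661 CPM, and naive Il6ra-deficient ones 627 and 768 CPM. After culture, wild type had 78.8 and 60.8 for IL-6 and 69.3 and 69.3 for hyper-IL-6, and Il6ra-deficient cells had 65.9 and 74.2. Every cultured library was far below every naive one, and the cultured groups overlapped each other. The log2 fold changes were -3.25 ± 0.14, -3.26 ± 0.14 and -3.32 ± 0.15 (adjusted p = 9.65e-09, 9.52e-09 and 8.13e-09).

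Il4ra (chromosome 7, 125552120 to 125579474, plus strand) and Il21r (chromosome 7, 125603429 to 125633570, plus strand) are neighbours 24.0 kb apart, and both fell by similar amounts. Il4ra was at 405 to 547 CPM in naive and at 183 to 221 CPM in cultured libraries. Il21r was at 256 to 326 CPM in naive and at 106 to 142 CPM in cultured libraries. The groups of either gene did not overlap. With hyper-IL-6 the log2 fold change of Il4ra was -1.20 ± 0.14 in wild type and -1.10 ± 0.14 in Il6ra-deficient cells, and that of Il21r was -1.18 ± 0.14 and -1.07 ± 0.14 (adjusted p at most 4.9e-05). Il4ra shares 571 exonic bases with Gm44876 on the opposite strand, and no source used here gives the strand setting of the counting, so the 2 cannot be told apart in that stretch.

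To show the sequence next to these start sites, the 250 bases before the RefSeq start (GRCm38.p6) are printed for the gene with the largest rise, Il2 (chr3:37125955-37126204, minus strand), for its receptor gene Il2ra (chr2:11642542-11642791, plus strand) and for the gene with the largest fall, Il7r (chr15:9529877-9530126, minus strand). Letters are 5′ to 3′ on the gene's strand. Capitals mark matches on either strand to the core bound by NFAT (GGAAA), to the STAT motif (TTCNNNGAA) or to the AP-1 motif (TGANTCA), and no 2 matches overlap.
Il2: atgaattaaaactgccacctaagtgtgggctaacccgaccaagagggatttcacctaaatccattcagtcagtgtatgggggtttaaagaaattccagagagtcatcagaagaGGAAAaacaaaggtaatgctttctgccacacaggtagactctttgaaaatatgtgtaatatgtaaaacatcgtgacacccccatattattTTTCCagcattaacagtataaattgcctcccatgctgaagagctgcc
Il2ra: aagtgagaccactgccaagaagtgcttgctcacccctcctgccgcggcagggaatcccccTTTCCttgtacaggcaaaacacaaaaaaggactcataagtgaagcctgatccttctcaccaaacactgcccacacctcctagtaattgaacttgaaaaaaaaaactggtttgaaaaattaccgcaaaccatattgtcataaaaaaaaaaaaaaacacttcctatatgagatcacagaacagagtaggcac
Il7r: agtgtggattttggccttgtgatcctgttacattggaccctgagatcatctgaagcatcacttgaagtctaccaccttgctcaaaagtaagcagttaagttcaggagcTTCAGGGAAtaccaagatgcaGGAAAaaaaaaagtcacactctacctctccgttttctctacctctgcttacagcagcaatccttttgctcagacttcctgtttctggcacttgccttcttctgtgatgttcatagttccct
The window of Il2 held 2 NFAT cores, at 137 and 47 bases before the start, that of Il2ra held 1, and that of Il7r held 1 with 1 STAT match beside it. Over 32851 RefSeq promoter windows of 250 bases, 55.6% held an NFAT core, 7.02% a STAT match and 6.75% an AP-1 match, so an NFAT core is a common feature. A match describes letters and is no evidence of binding. RefSeq windows were held for 7 of the 8 genes, all but Il2rb.

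Between cultures the 8 genes were hard to tell apart. With hyper-IL-6 against IL-6 in wild-type cells, 0 of the 8 passed edgeR's test, 0 had an unadjusted p under 0.05 and 0 passed DESeq2. Over all genes 0% passed, with 226 genes at an unadjusted p under 0.05 and 1 gene called by DESeq2. The libraries of both groups overlapped for every gene. The SE of the log2 difference was 0.10 to 0.14 for Il2ra, Il2rb, Il2rg, Il4ra, Il7r and Il21r, 0.21 for Il15ra and 0.40 for Il2, so the precision for Il2 was poor.

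The culture part was also read for the effect of genotype. In the hyper-IL-6 cultures 0 of the 8 genes differed between Il6ra-deficient and wild-type cells by edgeR, 0 at an unadjusted p under 0.05 and 0 by DESeq2, and over all genes 0% passed, with 351 at an unadjusted p under 0.05 and 3 by DESeq2. In naive cells 0 of the 8 passed, where 0.00670% of all genes did. Over all genes 1554 had an unadjusted p under 0.05 in naive cells, and DESeq2 called 93 genes and 0 members. Of the 8, Il2ra alone had an unadjusted p under 0.05. Its naive libraries did not overlap (8.57 and 10.2 CPM in Il6ra-deficient against 14.3 and 13.1 in wild-type cells). How often naive genotypes lay apart over all genes was not counted. The difference in Il2ra was -0.54 ± 0.14 (unadjusted p = 0.00272, adjusted p = 0.305 in edgeR and 0.0581 in DESeq2). Without the filter on low counts it passed (-0.53, adjusted p = 0.00248), and so did Il2 in the cultures (0.52, adjusted p = 0.00115), although its cultured groups overlapped. The test of whether culture acted differently on the genotypes called 0 of the 8, and 0% of all genes in the culture part. It had 1 member, Il2ra, at an unadjusted p under 0.05 (0.49 ± 0.18, unadjusted p = 0.0204, adjusted p = 0.563), and DESeq2 called 0 members. Over all genes 1267 had an unadjusted p under 0.05 in this test, and DESeq2 called 45.

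In the colon, 4 weeks after transfer, the cells carried far less Il2ra and less Il4ra than the Th17 precursors that had been transferred, and more Il15ra. This held in both genotypes. The libraries before transfer held Thy1.1+ cells straight from culture, while colon cells were sorted without a reporter gate. The parts of the sort, the culture, the tissue and the 4 weeks in these differences cannot be told apart. In wild type 4 of the 8 genes passed (1 higher, 3 lower) where 32.9% of all genes did, and in Il6ra-deficient cells 3 of the 8 passed (1 higher, 2 lower) where 27.0% did. Without the pair of libraries that stood apart the counts were 3 and 4. The median log2 fold change of the 8 genes was 0.01 in wild type and 0.29 in Il6ra-deficient cells, against -0.02 and 0.00 for all genes tested, so the set as a whole had no direction. Colon libraries also held transcripts of other cells. The 6 epithelial markers summed to 100.5 to 441 CPM in the colon against 6.95 to 18.6 CPM before transfer, with 5 of 6 higher in each genotype. The 8 myeloid markers summed to 130.0 to 329 CPM against 15.8 to 63.4, with 7 of 8 higher in wild type and 5 of 8 in Il6ra-deficient cells. Of the 3 regulatory T cell markers 2 were higher in each genotype, Foxp3 and Ikzf2. The part of such cells in the changes below was not tested.

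**Figure D2:**
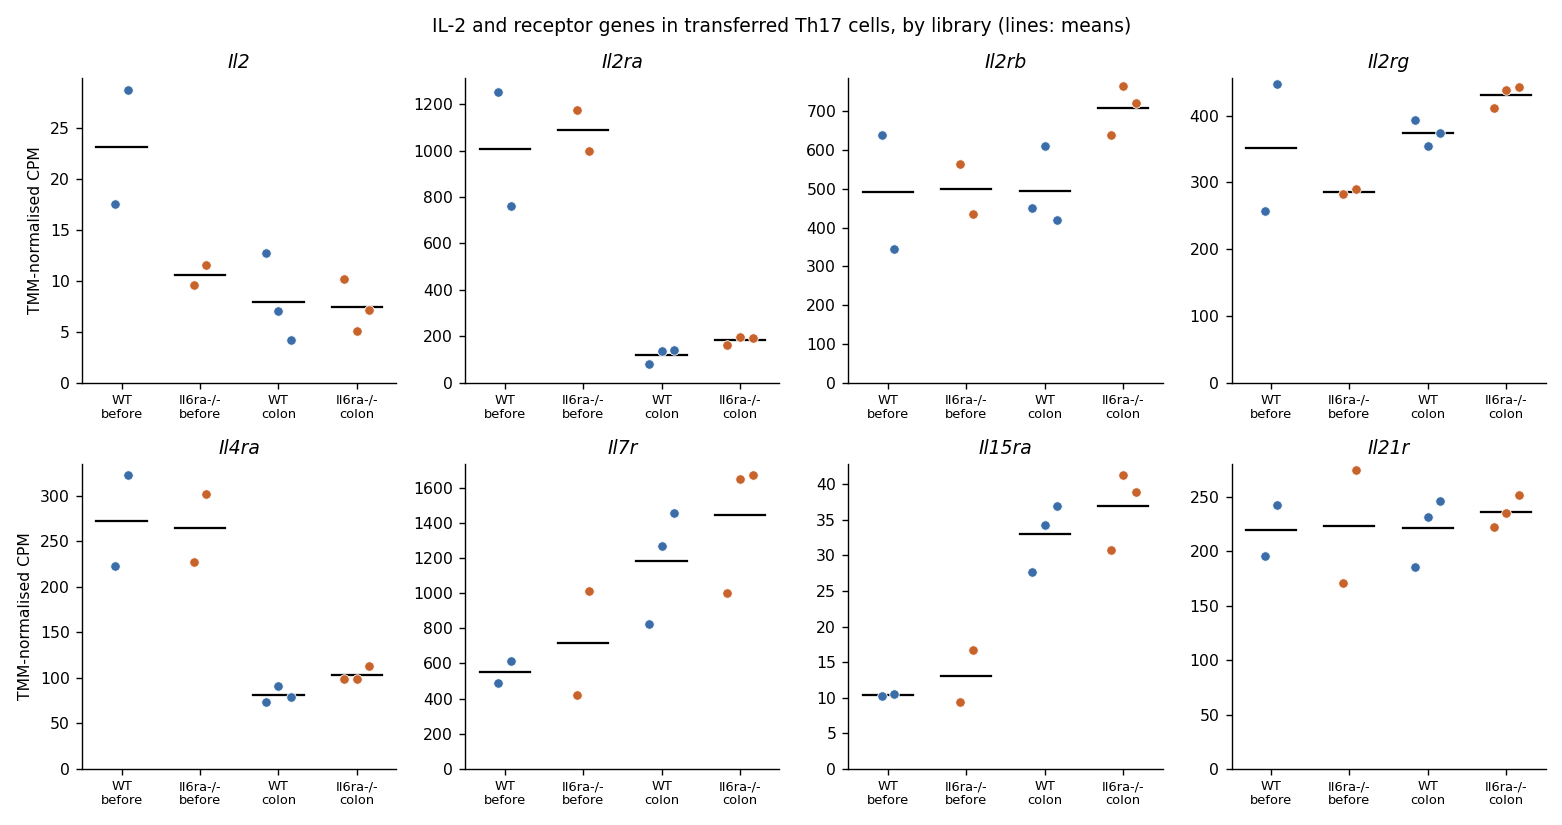
TMM-normalised CPM (vertical axes, each from 0) of the 8 genes in the transfer part; each point is 1 library (blue wild type, orange Il6ra-deficient, in the order 0, 1, 2) and each line a group mean of 2 or 3 libraries. Il2ra and Il4ra are lower and Il15ra higher in all 6 colon libraries than in all 4 libraries before transfer, and Il21r levels overlap throughout.

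Il2 itself was scarce at both stages of the transfer part. Before transfer it was at 17.5 and 28.7 CPM in wild type and at 9.59 and 11.6 CPM in Il6ra-deficient cells. In the colon it was at 12.7, 7.03 and 4.15 CPM in wild type and at 10.2, 5.10 and 7.12 CPM in Il6ra-deficient cells. The wild-type stages did not overlap and the Il6ra-deficient ones did. In wild type the fall was -1.54 ± 0.44 (adjusted p = 0.0226). Without wild-type library 1 before transfer it was -1.16 (adjusted p = 0.138), and without that library and wild-type colon library 2 it was -0.88 (adjusted p = 0.209). The call was also lost at values closer to the first one: -1.46 without wild-type colon library 1 (adjusted p = 0.0732), -1.26 without library 2 (0.056), and -1.54 against a 1.5-fold minimum (0.0624) or with only the 2 groups fitted (0.0523). Within the first experiment, with 1 library per stage, the log2 ratio was -0.47, and within the second it was -2.36. In Il6ra-deficient cells Il2 did not pass (adjusted p = 0.459).

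Il2ra gave the clearest result. Before transfer it was at 1254 and 760.3 CPM in wild type and at 1174 and 999.6 CPM in Il6ra-deficient cells. In the colon it was at 80.2, 137 and 142 CPM in wild type and at 160.4, 195 and 192 CPM in Il6ra-deficient cells. No colon library came near any library before transfer. The fall was -3.07 ± 0.29 in wild type (adjusted p = 4.76e-05) and -2.58 ± 0.29 in Il6ra-deficient cells (adjusted p = 0.000132), an 8.42-fold and a 5.96-fold lower level. It was present within each experiment (-3.97 and -2.45 in wild type, -2.87 and -2.37 in Il6ra-deficient cells), and under every alternative setting tried for these 2 comparisons it passed, with log2 values from -3.57 to -2.48.

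The chains that Il2ra works with did not pass in either genotype. Il2rb was at 640 and 345 CPM before transfer and at 451, 610 and 420 CPM in the colon in wild type, and at 565 and 436 against 639, 765 and 722 CPM in Il6ra-deficient cells. The wild-type stages overlapped, and all 3 Il6ra-deficient colon libraries lay above both earlier ones without passing (adjusted p = 0.992 in wild type and 0.225 in Il6ra-deficient cells). Il2rg was at 257 and 447 CPM before transfer and at 394, 355 and 374 CPM in the colon in wild type, and at 282 and 290 against 412, 438 and 443 CPM in Il6ra-deficient cells. Wild-type library 1 before transfer was the highest of all 10 for Il2rg and its partner library 0 the lowest. The direction in wild type therefore depended on them: without library 1 Il2rg passed as higher in the colon (0.53, adjusted p = 0.0491), and without library 0 the value was -0.24 (adjusted p = 0.254). In Il6ra-deficient cells the difference was 0.59 ± 0.23 (adjusted p = 0.0829), and it passed when only those 2 groups were fitted (0.55, adjusted p = 0.0159) and without the pair of libraries that stood apart (0.55, adjusted p = 0.00804).

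Il15ra rose in the colon. It was at 10.2 and 10.5 CPM before transfer and at 27.6, 34.3 and 36.9 CPM in the colon in wild type, and at 9.40 and 16.7 against 30.7, 41.2 and 38.9 CPM in Il6ra-deficient cells. Each colon library exceeded every earlier one. The rise was 1.67 ± 0.28 in wild type (adjusted p = 0.00168) and 1.5 ± 0.28 in Il6ra-deficient cells (adjusted p = 0.00303), or 3.17-fold and 2.83-fold. At this level it was the rarest receptor transcript of the set, and myeloid and epithelial cells, whose markers were higher in the same libraries, are known to carry IL-15 receptor alpha. Their part in the rise was not tested.

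Il7r did not pass in either genotype, and its call depended on the settings. It was at 489 and 612 CPM before transfer and at 824, 1266 and 1458 CPM in the colon in wild type, and at 423 and 1010 against 1003, 1651 and 1671 CPM in Il6ra-deficient cells. The wild-type stages did not overlap, while Il6ra-deficient library 1 before transfer lay just above the lowest colon library. The difference was 1.10 ± 0.40 in wild type (adjusted p = 0.0533) and 1.01 ± 0.39 in Il6ra-deficient cells (adjusted p = 0.0835). Library 0, from the first experiment, was the lowest of its group in all 4 groups. Il7r passed in wild type without wild-type colon library 0 (1.31, adjusted p = 0.0383). With the replicate number as a block Il7r passed in both genotypes (0.91 ± 0.26, adjusted p = 0.0304, and 0.93 ± 0.26, adjusted p = 0.0308). The same held with an experiment term (0.0123 and 0.0118), in DESeq2 (0.0171 and 0.041) and without the filter on low counts (0.0104 and 0.0295). Without Il6ra-deficient library 1 before transfer the value there was 1.77 (adjusted p = 0.0191). Within the first and the second experiment the wild-type log2 ratio was 0.75 and 1.15, and the Il6ra-deficient one 1.25 and 0.72.

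The chromosome 7 neighbours parted in the colon. Il4ra was at 223 and 322 CPM before transfer and at 73.4, 91.1 and 78.5 CPM in the colon in wild type, and at 227 and 302 against 98.2, 99.1 and 113 CPM in Il6ra-deficient cells. It fell by 1.75 ± 0.22 on the log2 scale in wild type (adjusted p = 0.000231) and by 1.35 ± 0.22 in Il6ra-deficient cells (adjusted p = 0.00113), with no overlap between stages. Il21r was at 196 and 243 CPM before transfer and at 186, 232 and 246 CPM in the colon in wild type, and at 171 and 275 against 222, 235 and 252 CPM in Il6ra-deficient cells. Its stages overlapped in both genotypes (adjusted p = 0.969 and 0.835). The ratio of Il21r to Il4ra, each in CPM per kb of exon, was 1.36 to 1.65 in the 4 libraries before transfer and 4.02 to 5.66 in the 6 colon libraries. In the culture part it was 0.909 to 1.4 over all 10 libraries.

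**Figure D3:**
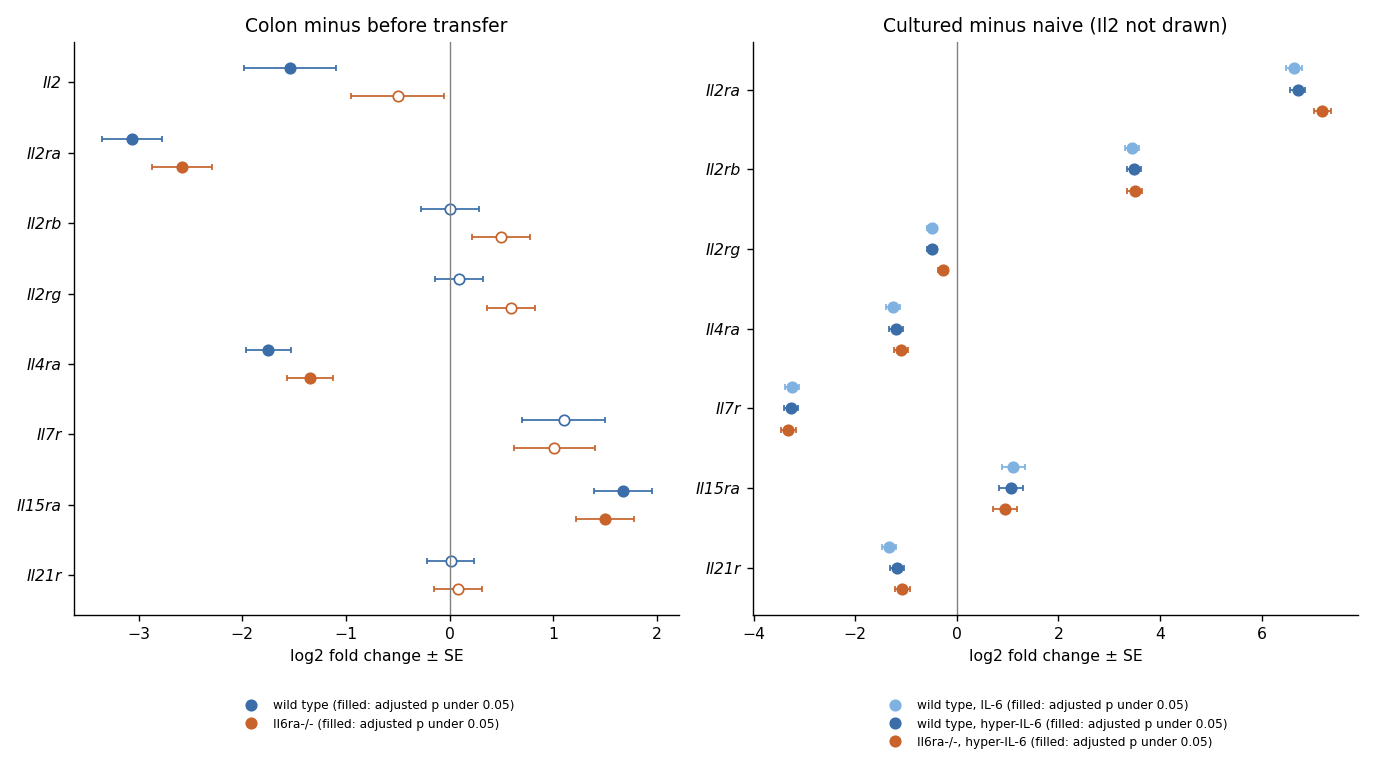
Log2 fold changes (points) ± SE (bars) from edgeR for colon against before transfer (left, 8 genes) and for cultured against naive cells (right, 7 genes, without Il2, whose naive counts were 0 to 11); filled points had an adjusted p under 0.05 and open points did not. Il2ra lies far left of 0 in the colon and far right of 0 in culture, and Il15ra lies right of 0 in both panels.

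Between genotypes in the colon, where cells of both had shared their hosts, the genes of all 3 IL-2 receptor chains had their Il6ra-deficient libraries above the wild-type ones, and none passed. Over all genes 0.155% passed and 648 had an unadjusted p under 0.05; of the 8 members 0 passed, 1 (Il2ra) had an unadjusted p under 0.05, and DESeq2 called 0. For Il2ra, Il2rb, Il2rg and Il4ra all 3 Il6ra-deficient libraries lay above all 3 wild-type ones, which held for 8.60% of all genes. The other members overlapped. Their log2 differences were 0.29 ± 0.34 for Il7r, 0.16 ± 0.24 for Il15ra, 0.10 ± 0.21 for Il21r and -0.08 ± 0.41 for Il2. The difference was 0.61 ± 0.26 for Il2ra (unadjusted p = 0.0397, adjusted p = 1). With same-numbered colon libraries paired it was 0.65 ± 0.19 (adjusted p = 0.298). In the first experiment it stood at 160.4 against 80.2 CPM, and the second gave a log2 ratio of 0.47. The main fit counted the 3 colon libraries of a genotype as separate replicates, although libraries 1 and 2 came from the same experiment. The SE over the 8 genes ran from 0.20 to 0.41, so that small differences were not detectable with 3 libraries per group. Other markers differed between the same libraries. Foxp3, which marks regulatory T cells that carry much CD25, was at 88.9, 35.7 and 43.7 CPM in Il6ra-deficient and at 19.3, 23.7 and 23.6 CPM in wild-type colon libraries, and 0 of its list of 3 passed. Ctla4 of that list had the opposite direction (899 ± 338 CPM in Il6ra-deficient against 1296 ± 635 CPM in wild-type colon libraries, SD, n = 3). Markers of CD8, NK and gamma-delta cells, which can carry CD122, (5 in the tables) summed to 103 to 172 CPM against 44.1 to 52.8 CPM, and 1 of 4 tested, Klrd1, passed. The part of either in the receptor levels was not tested.

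Before transfer 0 of the 8 genes passed between genotypes, where 0.00703% of all genes did, and DESeq2 called 0. Over all genes DESeq2 called 24, and 345 had an unadjusted p under 0.05. Among the 8 members Il2 alone had one. It was lower in both Il6ra-deficient libraries (9.59 and 11.6 CPM) than in both wild-type ones (17.5 and 28.7 CPM), a separation seen in that direction for 8.06% of all genes. The difference was -1.13 ± 0.50 (unadjusted p = 0.0443, adjusted p = 0.982). The SE over the 8 genes was 0.24 to 0.50. Whether the genotypes differed in what happened between culture and colon was tested as an interaction. It called 0 of the 8 genes, with 0 at an unadjusted p under 0.05, 0 by DESeq2 and 0% of all genes in the transfer part. Over all genes 377 had an unadjusted p under 0.05 there, and DESeq2 called 12.

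**Figure D4:**
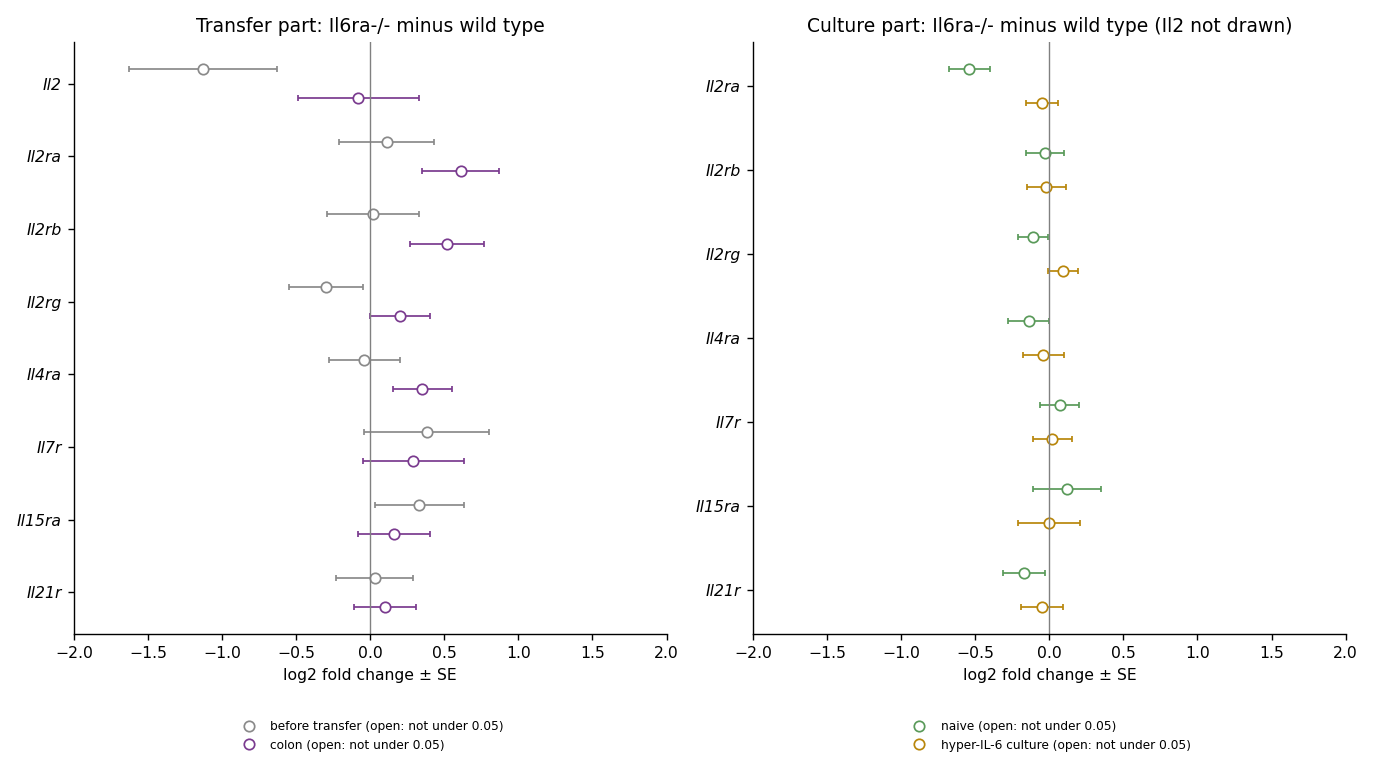
Log2 differences (points) ± SE (bars) between Il6ra-deficient and wild-type libraries from edgeR, on the left in the transfer part (8 genes, before transfer and colon) and on the right in the culture part (7 genes without Il2, naive and hyper-IL-6 culture); all points are open because none had an adjusted p under 0.05. In the colon all points but that of Il2 lie right of 0, and those of the hyper-IL-6 cultures lie near 0.

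Per kb of exon, which allows levels of different genes to be set side by side, the leading gene differed between groups. Groups of the 2 parts also differed in the dose of hyper-IL-6 and in the antibodies and drugs named for them. In naive cells Il7r led with 143 ± 1.38 CPM per kb in wild type and 149.6 ± 21.2 in Il6ra-deficient cells (SD, n = 2), followed by Il2rg, Il21r and Il4ra. The last 2 overlapped. In all 3 cultured groups Il2 led, with Il2ra, Il2rb and Il2rg after it in that order without overlap. Wild-type cells with hyper-IL-6 had 491 ± 3.28 for Il2, 250.4 ± 1.66 for Il2ra, 134 ± 7.13 for Il2rb and 94.0 ± 2.49 for Il2rg (CPM per kb, SD, n = 2). Before transfer Il2ra led in both genotypes (176 ± 61.1 in wild type and 190.3 ± 21.6 in Il6ra-deficient cells, n = 2), but it overlapped with the next gene. In the colon Il7r led again, with 254 ± 69.7 in wild type and 309 ± 81.4 in Il6ra-deficient cells (n = 3), and Il2ra was in the fifth place at 20.9 ± 6.00 and 31.9 ± 3.34 CPM per kb, where it overlapped with Il4ra in wild type.

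The ratio of Il2ra to Il7r, each per kb, sums this up in 1 number per library. It was 0.0109 to 0.0174 in the 4 naive libraries, 15.1 to 17.2 in the 6 cultured ones, 0.808 to 2.26 in the 4 libraries before transfer and 0.0794 to 0.130 in the 6 colon libraries. The colon values thus lay between the naive ones and those before transfer. The ratio of Il2ra to Il2rb did not show the same order. It was 0.134 to 0.224 in naive cells and 0.133 to 0.254 in colon libraries, which overlapped, and 1.47 to 2.05 in all cultured cells of either part.

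**Figure D5:**
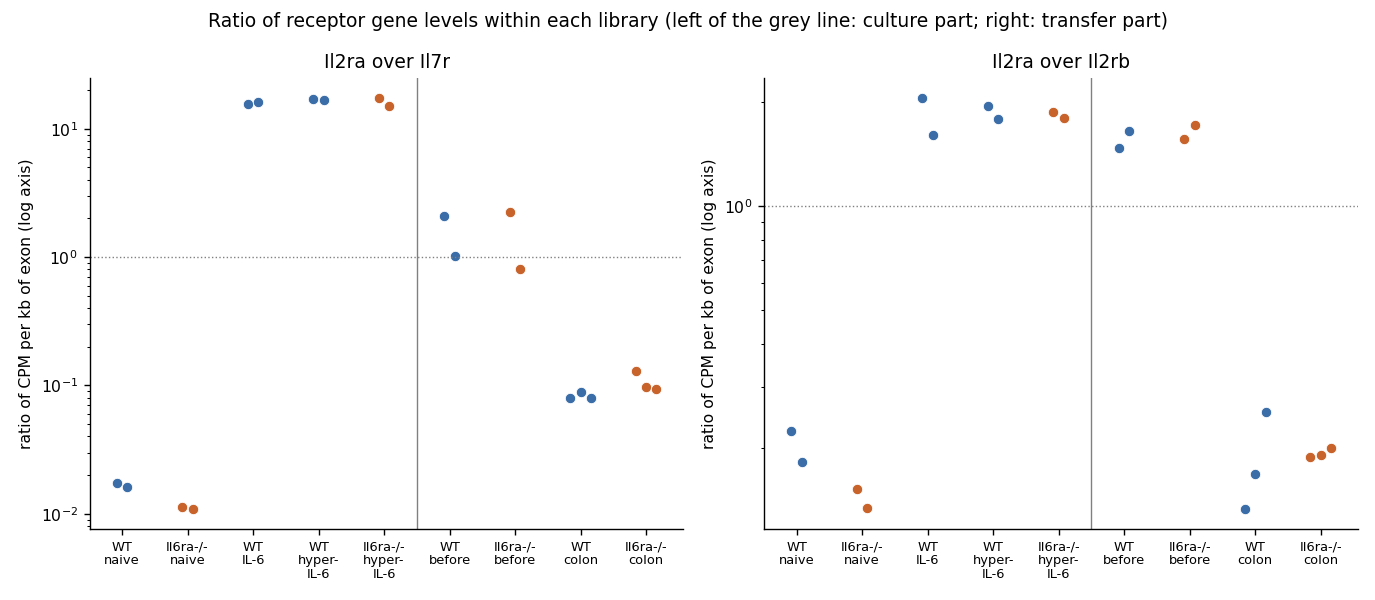
Ratio of Il2ra to Il7r (left) and of Il2ra to Il2rb (right), each in CPM per kb of exon and on a log axis; each point is 1 library (blue wild type, orange Il6ra-deficient), and the dotted line marks a ratio of 1. Colon libraries lie between naive libraries and those before transfer for Il2ra over Il7r, and beside the naive libraries for Il2ra over Il2rb.

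Cells described alike in both parts, Thy1.1+ Th17 cells after 6 days, were not alike in these genes. Il7r was at 423 to 1010 CPM before transfer and at 60.8 to 78.8 CPM in the culture part. Il2 was at 9.59 to 28.7 CPM before transfer and at 370.1 to 1113 CPM in the culture part. Il2ra, at 760.3 to 1254 and 1209 to 1516 CPM, was closer. The parts differed in the dose of hyper-IL-6, in anti-CD3 and the blocking antibodies named for the transfer part only, and in the PMA and ionomycin named for the culture part only. They were normalised separately, so no test was made, and the part of each difference cannot be told apart.

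The other ligand genes of the family were mostly rare. Of 7 ligand genes, 5 passed the filter in the transfer part, where the culture part had 3. Here and in the lists that follow, CPM values with ± are means and SD over the 2 or 3 libraries of a group. List counts are to be read beside the share of all genes that passed. That share was 32.9% in wild type and 27.0% in Il6ra-deficient cells for the colon against before transfer. For cultured against naive cells it was 70.3% to 72.0%, so passing was the usual outcome there. Il21, which lies 96.8 kb from Il2 with no protein-coding gene between, fell in the colon from 542 ± 350.5 to 29.4 ± 3.66 CPM in wild type (-4.20 ± 0.39, adjusted p = 3.77e-05) and from 498 ± 186 to 16.2 ± 2.18 CPM in Il6ra-deficient cells (-4.95 ± 0.40, adjusted p = 1.94e-05). Counts passing in the colon were 2 higher and 1 lower in wild type and 3 higher and 1 lower in Il6ra-deficient cells. The higher ones (Il7 and Il13 in both, Il15 in Il6ra-deficient cells) stayed at or under 2.07 CPM on average. In culture all 3 tested genes rose, and Il21 went from 0.886 ± 0.475 to 395 ± 18.8 CPM in wild type with hyper-IL-6. Il21 was thus high in both kinds of cultured cells, where Il2 was high in the culture part alone.

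Of the 3 other receptor chains, 2 rose in the wild-type colon and 1 in the Il6ra-deficient colon. Il9r, the private chain for IL-9, rose in both. It was at 0.704 and 0.694 CPM before transfer and at 51.5, 33.2 and 40.4 CPM in the colon in wild type, and at 1.28 and 0.299 against 24.4, 23.1 and 16.6 CPM in Il6ra-deficient cells. The rise was 5.88 ± 0.54 in wild type (adjusted p = 3.73e-05) and 4.73 ± 0.51 in Il6ra-deficient cells (adjusted p = 9.86e-05). Il13ra1, a chain shared by IL-4 and IL-13, also rose in wild type (1.31 ± 0.254 to 6.97 ± 0.284 CPM). In culture 1 of the 3 fell in wild type: Il9r was at 13 to 45 counts in the naive libraries and at 0 counts in all 4 libraries with hyper-IL-6. In Il6ra-deficient cells Il9r fell too, and Crlf2, the remaining gene of this list, rose from 63.2 ± 1.89 to 97.6 ± 23.6 CPM (0.63 ± 0.16, adjusted p = 0.00539).

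Kinases and STATs moved in both directions. In the colon 2 of 8 were higher and 3 lower in wild type, and 1 higher and 4 lower in Il6ra-deficient cells. Stat5a, 1 of the genes of STAT5, went from 262 ± 24.6 to 77.2 ± 8.16 CPM in wild type (-1.76 ± 0.18, adjusted p = 6.6e-05) and from 216 ± 26.1 to 75.0 ± 5.05 CPM in Il6ra-deficient cells (-1.53 ± 0.18, adjusted p = 0.000166). Jak2 also fell and Tyk2 rose in both genotypes, while Jak1 rose in wild type. Jak3 fell in Il6ra-deficient cells (-0.81 ± 0.27, adjusted p = 0.0468) and did not pass in wild type (-0.65 ± 0.27, adjusted p = 0.0889). Stat5b, the other STAT5 gene, fell from 367 ± 7.10 to 211 ± 20.0 CPM in wild type (-0.80 ± 0.20, adjusted p = 0.012) and from 423 ± 112 to 235 ± 14.2 CPM in Il6ra-deficient cells (-0.85 ± 0.20, adjusted p = 0.00993). In culture the STAT5 genes parted. Stat5a rose from 111 ± 7.74 CPM in naive to 594 ± 3.24 CPM in wild type with hyper-IL-6 (2.42 ± 0.09, adjusted p = 2.54e-09), where 2 of 8 were higher and 6 lower. Stat5b fell there from 339 ± 18.1 to 252 ± 15.4 CPM (-0.43 ± 0.10, adjusted p = 0.00386). Jak1, a kinase of these receptors, also fell there from 1120.4 ± 86.0 to 267 ± 1.58 CPM. With hyper-IL-6 Jak3 fell in wild type (-0.45 ± 0.18, adjusted p = 0.0414) and rose in Il6ra-deficient cells (0.46 ± 0.18, adjusted p = 0.0389). The interaction did not pass for Jak3 (adjusted p = 0.548).

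Feedback inhibitors that these cytokines are known to induce fell in part in the colon. Of 4 genes, 3 fell in the colon in wild type and 2 in Il6ra-deficient cells, and none rose. Socs2 went from 201 ± 54.7 to 44.7 ± 4.73 CPM in wild type (-2.17 ± 0.21, adjusted p = 5.02e-05) and from 184 ± 0.588 to 69.3 ± 9.13 CPM in Il6ra-deficient cells (-1.41 ± 0.21, adjusted p = 0.000725). Cish did not pass in either genotype, with 393 to 457 CPM before transfer and 311 to 459 CPM in the colon. In culture with hyper-IL-6, Socs2 rose from 0.885 ± 0.00706 to 112 ± 11.5 CPM and Cish from 26.6 ± 0.143 to 323 ± 11.8 CPM in wild type, while Socs3 fell from 284 ± 121 to 25.1 ± 3.29 CPM.

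Genes known as targets of IL-2 and STAT5 moved in both directions. In the colon 2 of 10 rose and 6 fell in wild type, and 2 rose and 5 fell in Il6ra-deficient cells. Those that rose were Prdm1, which encodes the repressor Blimp-1 (3.97 ± 0.565 to 87.0 ± 19.4 CPM in wild type), and Gzmb, a cytotoxic granule protease (10.9 ± 5.36 to 164 ± 55.1 CPM). Those that fell included Myc, a driver of growth (182 ± 34.8 to 42.5 ± 7.38 CPM in wild type), and the costimulatory receptor gene Tnfrsf18 (448 ± 229 to 78.3 ± 7.22 CPM). In culture with hyper-IL-6, 7 of 10 rose and 2 fell in either genotype, where 70.3% (wild type) and 72.0% (Il6ra-deficient) of all genes passed. Tnfrsf4, the costimulatory receptor OX40, went from 17.1 ± 0.524 to 582 ± 7.06 CPM in wild type, and Prdm1 was among those that fell, from 10.3 ± 2.94 to 0.732 ± 0.194 CPM.

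Genes known to regulate Il7r or Il2 were followed as a last list of 9. Klf2, a factor of resting and recirculating T cells, was at 838 to 1078 CPM in naive and under 1 CPM in all 6 cultured libraries (-10.03 ± 0.18 in wild type with hyper-IL-6, adjusted p = 1.26e-10). In wild type with hyper-IL-6, 3 of 9 were higher and 6 lower, where 70.3% of all genes passed. Gfi1, a repressor known to act on Il7r, rose there from 22.0 ± 4.40 to 197 ± 3.34 CPM. In the colon 4 of 9 rose and 1 fell in each genotype. Fos rose from 43.2 ± 11.9 to 678 ± 137 CPM in wild type (3.97 ± 0.36, adjusted p = 3.16e-05), and Gfi1 fell from 122 ± 26.3 to 70.2 ± 5.00 CPM in Il6ra-deficient cells (-0.79 ± 0.20, adjusted p = 0.0131). Of all 6 lists, 0 genes passed between genotypes in any comparison.

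Genes whose pattern was nearest to each member were found by the root mean square difference in log2 CPM over the 20 libraries, each gene centred within its part, among 8937 named genes with a mean log2 CPM of at least 2 in each part. Nearest to Il2ra were Alcam, an adhesion molecule (0.41), and Irf4, a transcription factor of activated T cells (0.47), where the median over all candidates was 2.58. Nearest to Il2rb were Cish (0.26) and Map2k3 (0.26), to Il7r Ccdc125 (0.22) and Ddb2 (0.26), to Il15ra Fam204a (0.21) and Abcb1b (0.26), and to Il21r the survival gene Mcl1 (0.12) and Parp6 (0.14). Nearest to Il4ra were Klhdc2 (0.18) and Grik5 (0.21), and to Il2rg, which hardly varied, Actr5 and Oxa1l (0.09 each). The nearest genes of Il2, Srxn1 (0.98) and Pdgfb (1.07), differed from it by about a doubling, where the median over all candidates was 4.15. These distances grow with a member's own spread, which was 4.17 for Il2 and 0.25 for Il2rg (SD of log2 CPM). They are therefore not to be compared between members. The 20 libraries share 9 groups, so these distances are descriptions of likeness and carry no test.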

How the data were processed

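RNA of 20 libraries was sequenced. Per the labels' protocols, libraries of the transfer part were made with TruSeq Stranded mRNA. For the culture part no kit is named in the sources used here. Raw gene counts were deposited by the authors, 1 table per library with 39179 gene IDs and 5 summary lines, which were left out. Per the submitters' processing notes, the tools included HTSeq 0.7.2, STAR 2.5.3, R 3.4.3, DESeq2 1.18.1 and SAMtools 0.1.18, and the build was GRCm38 (mm10). Neither the annotation release nor the strand setting is given in those sources. Names, positions and exon lengths came from GENCODE M21.

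Each part was fitted separately with edgeR 4.0.16 (R 4.3.3): TMM, filter by expression per group, group as the only factor, quasi-likelihood test, Benjamini-Hochberg adjustment, 12 comparisons. SE is the log2 fold change divided by the square root of F. The fit was tested on simulated counts. Members, lists, alternatives and the rule for named genes (the 8 members, up to 4 largest called changes per list and comparison, and the 2 nearest genes per member) were chosen with earlier results of these data known; other markers were named after their values were seen. Alternatives were RLE factors, no filter, a stricter filter (2 CPM in 2 libraries), DESeq2 1.42.0, the compared groups only, a replicate block, an experiment term, a 1.5-fold minimum, each library left out and, in the transfer part, both libraries that stood apart left out together. A block within each stage was added after seeing the data.

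Labels tie numbers to experiments in the transfer part. Across genes, same-numbered libraries deviated from their group means with correlations of 0.183 to 0.58 within a stage and of -0.143 to 0.0793 across stages, so numbers were taken to pair libraries within a stage. In the culture part these correlations were -0.164 to 0.156, and numbers name replicates only. Within every group, libraries differed by more than sampling noise (mean chi-square per gene 6.72 to 238).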

Additional observations from a re-analysis of the deposited data

How the results depend on the processing

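Counts of members past the threshold stayed within 1.5 times in 214 of 217 alternative values over the 12 comparisons. The exceptions came without the filter on low counts, where 1 member passed in place of 0 in the hyper-IL-6 cultures between genotypes (Il2), in naive cells between genotypes (Il2ra) and in the culture interaction (Il2). Over single members, 692 of 725 values kept direction and side of the threshold, 11 no longer passed, 20 newly passed and 2 reversed. The reversed ones were Il2rg in wild type, colon against before transfer, at -0.24 without wild-type library 0 before transfer (left-out libraries ranged from there to 0.53), and Il2 between genotypes in hyper-IL-6 culture, at -0.14 without Il6ra-deficient library 2 (up to 0.99); the cause was not tested. With the replicate number as a block, 5 members passed in wild type and 4 in Il6ra-deficient cells for colon against before transfer, Il7r being the addition in both, and in the culture part, where numbers pair nothing, the block left the member counts at 8 or 0. Over all genes, the block moved calls between colon genotypes from 22 to 39 and, within the stage, to 94; DESeq2 gave 133 there and left-out libraries 0 to 37. Before transfer, genotype calls went from 1 to 24 by DESeq2, to 17 without the filter and to 1152 without wild-type library 0. Naive genotype calls went from 1 to 93 by DESeq2, to 439 without the filter and to 902 without wild-type naive library 2. RLE factors shifted the median of all genes by at most 0.02. Groups of 2 leave Il2, with an SE of 0.40 to 0.50 in cultured cells, the least precise member.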
